A study of Schmidtea mediterranea with 24 samples.

Results

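Tail fragments of the planarian flatworm Schmidtea mediterranea were compared after RNAi against egr-2 and after control RNAi at 4 days of regeneration. The comparison used the 4 egr-2 RNAi and the 4 control RNAi libraries of that time point, 8 of the 24 libraries of the series, and every transcript contig with enough counts in these 8 libraries. Of 28069 contig IDs in the count table, 19237 were tested and 8832 were left out for low counts, 318 of them with 0 counts in all 8 libraries. After RNAi against egr-2, 503 IDs were higher and 294 were lower than in controls, and most of these differences were small.

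All animals belonged to the asexual clonal line CIW4, so replicates did not differ in strain. Double-stranded RNA directed at egr-2, or at egfp for the controls, was given in 6 feedings of 2 µg, followed by 7 days of starvation and amputation. Each replicate was a pool of 10 tail fragments, of which the anterior part was taken at amputation (0 h) or after 2 or 4 days. The labels call the replicates biological but do not say whether animals were fed or cut on separate days, so p-values measure the spread between pools.

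Planarians rebuild missing parts from neoblasts, a population of dividing stem cells that gather near the wound and supply the new tissue called the blastema. The early growth response (egr) genes encode zinc-finger transcription factors, and several planarian members are switched on by wounding or mark differentiating cells. RNAi in planarians works by feeding: double-stranded RNA spreads through the body and lowers the matching transcript, while egfp, a jellyfish reporter gene, has no planarian target and serves as control. The pieces studied here face the cut at the front of a tail, the end from which a new head grows.

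The files do not pair the contig IDs with gene names, and no annotation was used here. The IDs are therefore given as deposited, with no gene name or role, and the level of the egr-2 transcript and the markers of the labelled tissue were not analysed here. In a bulk sample, fewer cells of a type and less RNA per cell cannot be told apart, and this holds for every difference below.

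The 8 libraries were deep and alike. Total counts ran from 23724985 to 30829850 in controls and from 26051142 to 29568965 after egr-2 RNAi, and scaling factors lay between 0.978 and 1.01. The main axis of variation over the 19237 IDs, a principal component with 23.4% of the variance, separated the groups, with controls between -29.7 and -4.50 and egr-2 RNAi between 9.31 and 18.01. Control replicate 1, with the lowest total, lay farthest out on this axis.

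At an adjusted p below 0.05 in edgeR's quasi-likelihood test, 797 IDs were called, 4.14% of those tested. The 503 higher IDs were 2.61% and the 294 lower IDs 1.53% of the tested IDs, so 63.1% of the calls were higher. The groups did not overlap for 458 of the 503 higher and 267 of the 294 lower IDs, against 1790 of all tested IDs, or 9.30%. The call count rested in part on single libraries: 504 IDs were called without control replicate 2 and 530 without egr-2 RNAi replicate 4. In a fit over all 24 libraries, which changed the filter, the scaling and the adjustment as well as the spread, 464 IDs were called.

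The called differences were mostly modest. The median log2 fold change was 0.35 among higher and -0.32 among lower calls, and the median absolute value was 0.34, against 0.092 over all tested IDs. Changes of at least 1.5-fold were found for 90 higher and 64 lower calls. Changes of at least 2-fold were found for 29 higher and 24 lower calls, together 0.276% of the tested IDs. The median level of higher calls was 32.2 CPM (counts scaled to library size) in controls and 39.7 CPM after egr-2 RNAi, and that of lower calls was 40.9 CPM and 30.8 CPM.

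**Figure D1:**
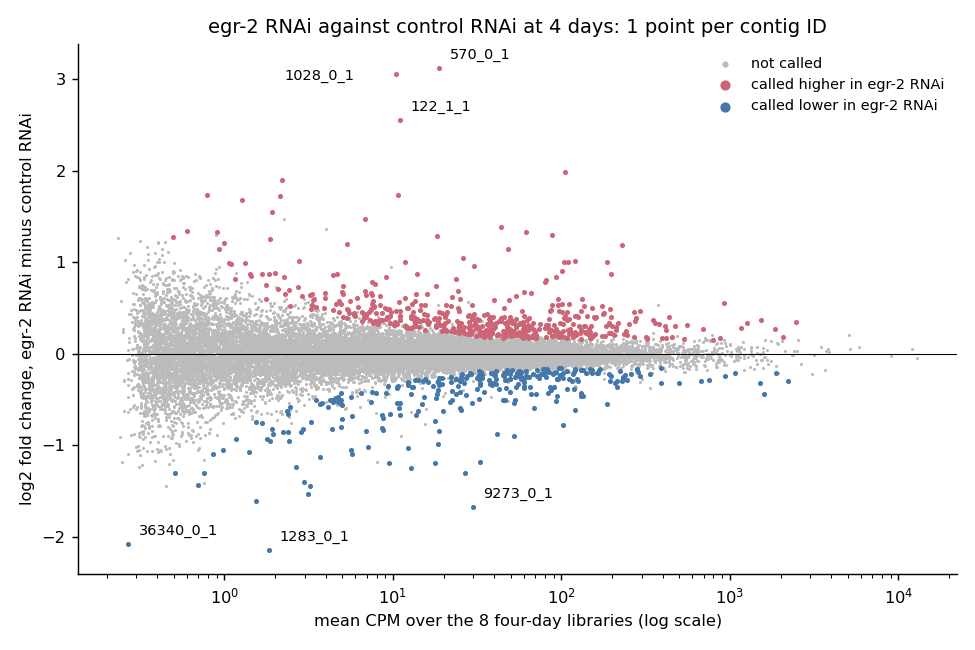
Log2 fold change at 4 days (vertical axis, egr-2 RNAi minus control RNAi) against mean CPM over the 8 libraries (horizontal axis, log scale), 1 point for each of 19237 IDs, with the 503 higher and 294 lower calls in colour and 6 IDs labelled without their shared prefix dd_Smed_v6. Most coloured points lie close to the line at 0, and 3 higher and 2 lower calls reach 4-fold.

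In each library the calls of both directions made up a small share of all counts. The 503 higher IDs held 4.14% to 4.54% of the counts in the 4 control libraries and 5.34% to 5.56% in the 4 egr-2 RNAi libraries. The 294 lower IDs held 3.28% to 3.37% in controls and 2.67% to 2.74% after egr-2 RNAi. Neither range overlapped between the groups, which follows from how the IDs were called.

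Calls were more frequent among abundant IDs. Of 3366 IDs with a mean under 1 CPM, 0.357% were called, against 2.65% between 1 and 10 CPM, 5.70% between 10 and 100 CPM, 8.87% between 100 and 1000 CPM and 12.6% of the 87 IDs over 1000 CPM. Calls in the lowest of these classes had a median absolute log2 fold change of 1.30, against 0.27 between 100 and 1000 CPM. By contig length, 3.17% of IDs up to 500 bases and 6.04% of those over 2000 bases were called.

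The largest rises belonged to a pair of short contigs. The contig dd_Smed_v6_570_0_1, of 431 bases, stood at 2.60, 1.28, 7.89 and 3.56 CPM in control replicates 1 to 4 and at 30.6, 26.4, 26.8 and 51.2 CPM after egr-2 RNAi. Every egr-2 RNAi library lay above every control, which the choice of the 2 IDs named per direction required. The log2 difference was 3.12 (SE 0.31, adjusted p = 1.8e-05), an 8.69-fold difference. The value was 3.79 without control replicate 3, the highest control. Levels of dd_Smed_v6_1028_0_1, of 426 bases, were 1.52, 0.669, 4.93 and 1.75 CPM in controls and 18.2, 14.4, 15.3 and 26.8 CPM after egr-2 RNAi. This difference was 3.05 on the log2 scale (SE 0.32, adjusted p = 2.5e-05), again with no overlap as the choice required, and 3.86 without control replicate 3. In both contigs control replicate 3 was the highest and control replicate 2 the lowest of the controls, and egr-2 RNAi replicate 4 was the highest of all 8.

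Both contigs were far more abundant at 2 days than at 4 days. Group means of dd_Smed_v6_570_0_1 at 0 h, 2 days and 4 days were 0.410 ± 0.18, 65.9 ± 21.9 and 3.83 ± 2.86 CPM in controls (SD, n = 4). After egr-2 RNAi they were 4.85 ± 3.26, 106 ± 32.8 and 33.7 ± 11.8 CPM (SD, n = 4). From 2 to 4 days the contig fell in both conditions, with a log2 change of -4.08 in controls (SE 0.33, adjusted p = 1.5e-07) and -1.65 after egr-2 RNAi (SE 0.19, adjusted p = 9.0e-07). At 2 days its RNAi difference of 0.68 (SE 0.21, adjusted p = 0.12) did not pass the test, and at 0 h that of 3.48 (SE 0.55, adjusted p = 0.012) passed. The 0 h controls had 2 to 11 counts per library, so the 0 h value rests on low counts.

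For dd_Smed_v6_1028_0_1 the controls stood at 0.292 ± 0.27, 39.7 ± 13 and 2.22 ± 1.87 CPM at the 3 times (SD, n = 4). The egr-2 RNAi fragments stood at 1.27 ± 1.15, 67.7 ± 22.9 and 18.7 ± 5.65 CPM (SD, n = 4). Its RNAi difference was 2.02 at 0 h (SE 0.72, adjusted p = 0.22) and 0.77 at 2 days (SE 0.21, adjusted p = 0.077), and neither passed the test. The 4-day effect of this contig differed from that at 2 days by 2.27 (SE 0.48, adjusted p = 0.061), which did not pass either. It passed in 4 of 22 alternative fits, among them those without control 2-day replicate 1 (adjusted p = 0.015) and without control 4-day replicate 3 (3.08, adjusted p = 0.0061).

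One more ID rose more than 4-fold, and it was picked out with its values in view. The contig dd_Smed_v6_122_1_1, of 1259 bases, had 3.48, 1.82, 3.41 and 4.25 CPM in controls and 25.5, 12.8, 13.3 and 23.6 CPM after egr-2 RNAi, with no overlap. Its log2 fold change was 2.55 (SE 0.23, adjusted p = 8.8e-06), but the call was lost when all 24 libraries were fitted together (adjusted p = 0.10). In contrast to the pair above it was most abundant before regeneration: control means were 532, 22.1 and 3.24 CPM at 0 h, 2 days and 4 days. At 0 h its control libraries spread from 38.6 to 1309 CPM, and its RNAi difference there, 1.64 (SE 0.80, adjusted p = 0.36), did not pass the test. At 2 days the difference of 1.73 (SE 0.32, adjusted p = 0.0093) passed.

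The largest falls had different time courses. The contig dd_Smed_v6_1283_0_1, of 667 bases, was at 2.60, 2.74, 4.84 and 1.81 CPM in controls and at 0.287, 0.848, 0.894 and 0.692 CPM after egr-2 RNAi. Every egr-2 RNAi library lay below every control, as the choice of this ID required, with a log2 difference of -2.14 (SE 0.32, adjusted p = 4.5e-04). Its 2-day difference was -3.55 (SE 0.65, adjusted p = 0.0083), with 0 counts in egr-2 RNAi replicate 3, which allows up to 0.157 CPM. The 2-day egr-2 RNAi libraries had 0 to 7 counts and the 2-day controls 15 to 69, so this value rests on low counts. The 0 h difference of -0.53 (SE 0.48, adjusted p = 0.63) did not pass.

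The lowest p-value of all 19237 IDs belonged to dd_Smed_v6_9273_0_1, of 1670 bases. Its controls were at 48.9, 43.7, 43.1 and 45.8 CPM and its egr-2 RNAi libraries at 17.0, 13.3, 12.6 and 13.5 CPM. The lack of overlap was again required for naming it. The log2 fold change was -1.67 (SE 0.077, adjusted p = 7.0e-10). The deficit was present at each time, with -1.94 at 0 h (SE 0.27, adjusted p = 0.0071) and -1.64 at 2 days (SE 0.12, adjusted p = 8.6e-07). The contig rose after amputation in both conditions: control means were 4.21 ± 1.47, 59.4 ± 11.2 and 45.4 ± 2.63 CPM and egr-2 RNAi means 1.08 ± 0.24, 19.0 ± 2.73 and 14.1 ± 1.96 CPM at the 3 times (SD, n = 4).

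The second ID with a 4-fold fall, dd_Smed_v6_36340_0_1, of 453 bases, was near the limit of detection and was likewise picked out with its values in view. Its libraries had 11, 13, 15 and 15 counts in controls and 3, 5, 0 and 4 counts after egr-2 RNAi, where the count of 0 allows up to 0.0993 CPM. The log2 fold change was -2.08 (SE 0.49, adjusted p = 0.019) and missed the threshold without egr-2 RNAi replicate 1 (adjusted p = 0.059). The filter of at least 1 CPM and DESeq2 gave no result for this ID, and it has no value in the authors' deposited table. At 2 days it did not pass the count filter, and its means lay the other way, at 0.192 CPM in controls and 0.477 CPM after egr-2 RNAi. The 4-day effect differed from that at 2 days by -3.33 (SE 0.74, adjusted p = 0.075), which did not pass.

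**Figure D2:**
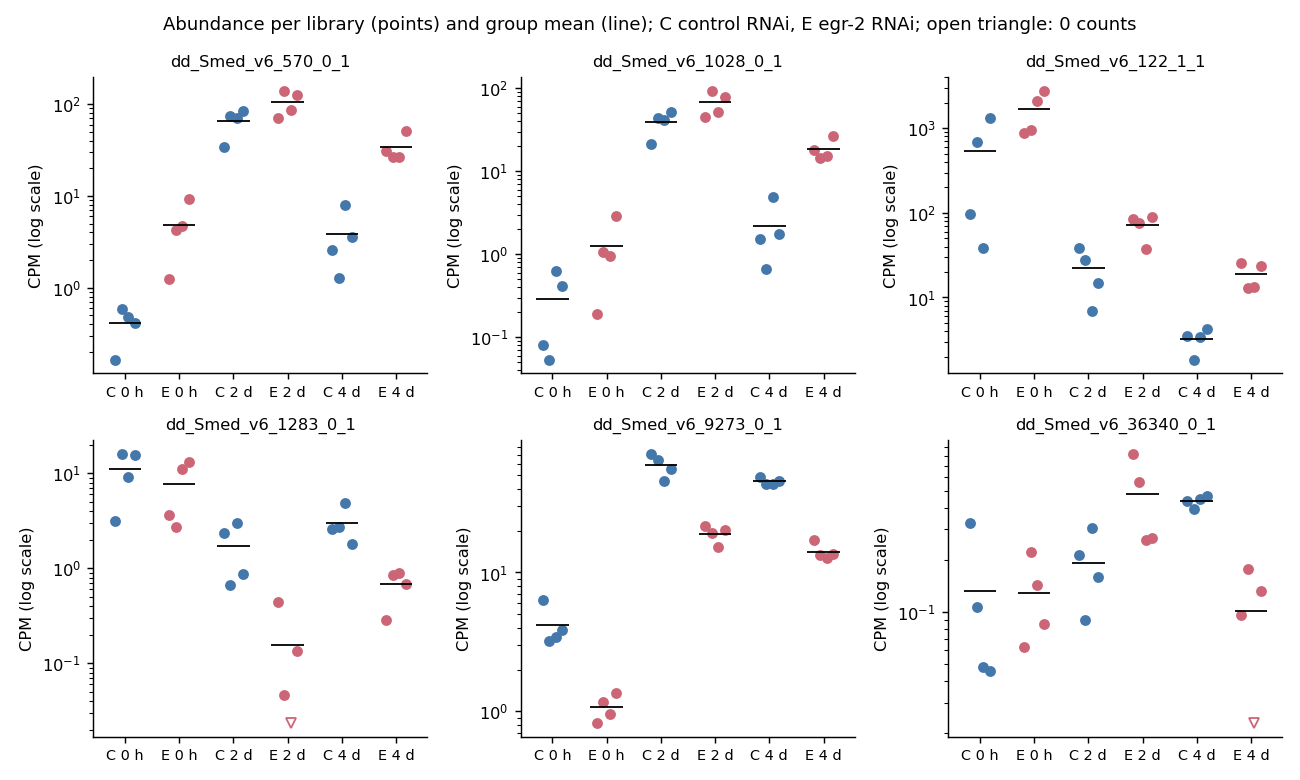
CPM per library (log scale, points) and group mean (line) of the 3 IDs that rose and the 3 that fell by the largest amounts described above, for control RNAi (C) and egr-2 RNAi (E) at 0 h, 2 days and 4 days, with open triangles for 0 counts. At 4 days the 4 points of the groups are separate in each panel, as was required of the 2 IDs named per direction. The contigs dd_Smed_v6_570_0_1 and dd_Smed_v6_1028_0_1 peak at 2 days, and dd_Smed_v6_122_1_1 falls with time in both conditions.

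Some of the 4-day calls were also called in libraries from other times, none of which enter the 4-day comparison. At 0 h, 497 of the higher calls could be tested and 59 were called higher, against 0.964% of all IDs. Of 279 lower calls tested at 0 h, 4 were called lower, against 0.120%. The median 0 h difference was 0.16 among the higher and -0.17 among the lower calls, and 406 of 497 lay above 0 and 227 of 279 below it. Over all IDs tested at 0 h, 50.6% lay above 0 and 49.4% below it. The count shared in the same direction, 63, moved with single 0 h libraries: it became 16, 30, 11 or 34 when control replicate 1, 2, 3 or 4 was dropped, and 132, 36 or 19 when replicate 1, 2 or 4 of egr-2 RNAi was dropped.

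At 2 days, 60 of 502 higher calls were called higher, against 0.851% of all IDs, and 87 of 284 lower calls were called lower, against 0.896%. The medians were 0.089 and -0.20, with 386 of 502 above 0 and 247 of 284 below it. Over all IDs tested at 2 days, 50.9% lay above 0 and 49.1% below it. The shared count of 147 became 92 or 87 when control 2-day replicate 2 or 4 was left out, and 65, 71 or 95 when egr-2 RNAi 2-day replicate 1, 2 or 4 was left out. Expressed against each list, the 147 IDs were 18.4% of the 4-day calls and 47.1% of the 2-day calls, and the 63 IDs were 7.90% of the 4-day calls and 33.3% of the 0 h calls. In the fit over all 24 libraries, 17 calls were shared with 2 days and 149 with 0 h.

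Calls of at least 2-fold were described apart. Of the 29 higher ones, all 24 tested at 0 h and all 28 tested at 2 days lay above 0, with medians of 1.39 and 0.52, and 10 and 11 of them were called. Of the 24 lower ones, 17 of 19 lay below 0 at 0 h, with a median of -0.52, and 1 was called, dd_Smed_v6_9273_0_1. At 2 days 14 of 15 lay below 0, with a median of -1.36, and 9 were called. Over all IDs, 50.6% lay above 0 at 0 h and 50.9% at 2 days. Called higher were 0.964% at 0 h and 0.851% at 2 days, and called lower 0.120% and 0.896%. The lists of 2-fold calls were picked on the 4-day values, and only IDs that passed the count filter at the other time could be tested there.

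**Figure D3:**
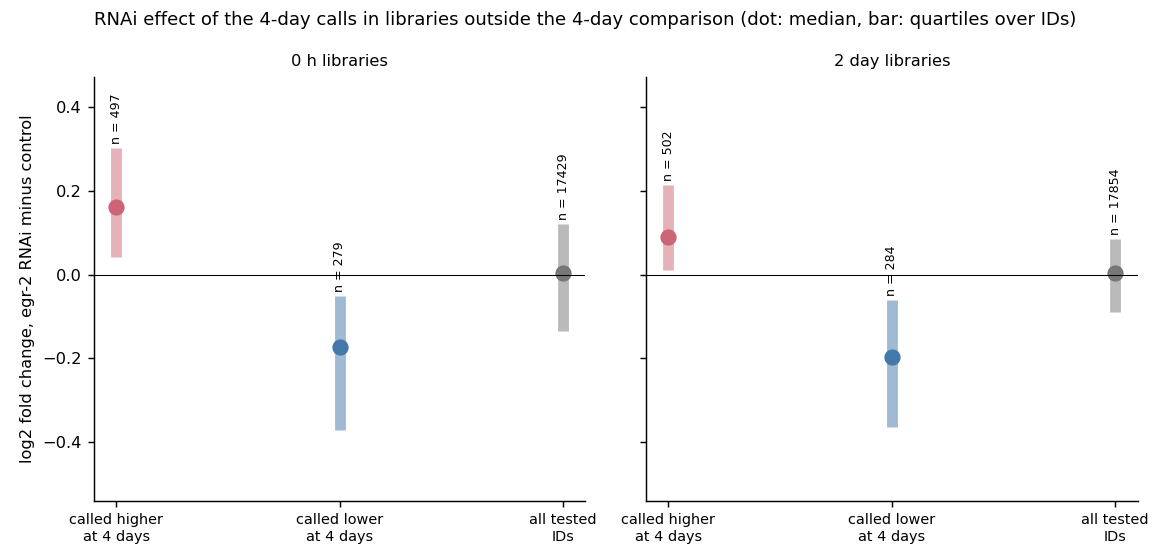
RNAi difference (log2, egr-2 RNAi minus control) at 0 h and at 2 days for IDs called higher or lower at 4 days and for all tested IDs, as the median (dot) and quartiles (bar) over n IDs. Higher calls have medians of 0.16 and 0.089, lower calls -0.17 and -0.20, and all IDs lie around 0.

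Across all IDs tested at both times, the 4-day RNAi difference had a Spearman correlation of 0.156 with that at 0 h (17268 IDs) and of 0.170 with that at 2 days (17802 IDs). The points are IDs within libraries, not independent replicates.

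Of 19237 IDs tested at 4 days, 23 were called in the same direction at all 3 times, 21 higher and 2 lower. The count depends on the calls shared with 0 h and 2 days, which moved with single libraries. It was not refitted with libraries left out. In the fit over all 24 libraries the calls shared with 2 days numbered 17, which is below 23. The lower pair was dd_Smed_v6_9273_0_1 and dd_Smed_v6_12472_0_1, named after their values were seen. In dd_Smed_v6_12472_0_1 the 4-day controls had 101, 109, 111 and 117 CPM and the egr-2 RNAi libraries 74.5, 73.0, 76.8 and 81.3 CPM, with no overlap and a log2 difference of -0.51 (SE 0.050, adjusted p = 1.8e-05). Its differences were -0.53 at 0 h (SE 0.11, adjusted p = 0.041) and -0.35 at 2 days (SE 0.076, adjusted p = 0.025). Like dd_Smed_v6_9273_0_1 it rose after amputation, in controls from 24.5 to 109 CPM at 2 days. The other lower calls shared with 0 h alone were dd_Smed_v6_9508_0_1, at -0.36, and dd_Smed_v6_2080_0_1, at -0.19, whose 4-day call was lost in 8 of 16 alternative fits.

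The RNAi difference itself was then compared between times, in a fit over all 24 libraries and 19761 IDs. Between 4 days and 0 h it differed for 16 IDs with the higher value at 4 days, 0.0810% of those tested, and for 40 with the lower value, 0.202%. Of these 56, 16 were 4-day calls, 8 higher and 8 lower. The higher value was at 4 days for 28.6% of the 56, but for 62.7% of the 51 IDs that differed when libraries were scaled by total counts alone. Set against 2 days, the 4-day effect was higher for 14 IDs, 0.0708%, and lower for 4, 0.0202%, and all 18 were 4-day calls. Of the IDs tested at 4 days, 4.14% were 4-day calls. Both differences use the 4-day libraries that gave those calls, so the overlap is in part built in. The counts of 56 and 18 moved with single libraries. The 56 became 30, 11 or 34 when control 0 h replicate 1, 3 or 4 was dropped, 101 or 32 for egr-2 RNAi 0 h replicate 3 or 4, 37 or 29 for control 4-day replicate 1 or 2, and 28, 18 or 15 for egr-2 RNAi 4-day replicate 2, 3 or 4. The 18 became 32 or 10 when control 2-day replicate 1 or control 4-day replicate 1 was dropped, and 2 for egr-2 RNAi 2-day replicate 4. It became 1 when any of control 2-day replicates 3 and 4, egr-2 RNAi 2-day replicates 1 and 2, control 4-day replicates 2 and 4, or egr-2 RNAi 4-day replicates 2, 3 and 4 was dropped.

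The clearest change between times was that of dd_Smed_v6_6337_0_1, of 1501 bases, the single 4-day call with an opposite call at 2 days, and named for that after its values were seen. At 4 days it had 55.6, 43.5, 47.1 and 39.3 CPM in controls and 66.1, 74.2, 81.8 and 72.1 CPM after egr-2 RNAi, a log2 difference of 0.68 (SE 0.083, adjusted p = 1.1e-04). At 2 days it had 27.1, 30.5, 39.0 and 37.7 CPM in controls and 20.9, 23.4, 23.1 and 17.2 CPM after egr-2 RNAi, a log2 difference of -0.67 (SE 0.11, adjusted p = 0.0030). The groups were separate at both times, in opposite directions. The difference of 1.34 between the 2 effects (SE 0.15, adjusted p = 4.1e-05) was called in all 22 alternative fits.

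Differences against both other times were called for 4 IDs, also named after their values were seen. Lower at 4 days was dd_Smed_v6_1350_0_1, with 74.3, 63.4, 53.4 and 58.6 CPM in controls and 47.6, 41.4, 40.3 and 41.4 CPM after egr-2 RNAi (log2 fold change -0.54, SE 0.080, adjusted p = 4.6e-04). Controls of this contig rose from 42.7 CPM at 2 days to 62.4 CPM at 4 days, a log2 change of 0.55 (adjusted p = 4.9e-05), and egr-2 RNAi fragments stood at 48.6 and 42.6 CPM, a log2 change of -0.18 that did not pass (adjusted p = 0.067). Its RNAi effect at 4 days differed from that at 0 h by -0.94 (adjusted p = 0.0019), called in all 22 alternative fits, and from that at 2 days by -0.74 (adjusted p = 0.030), lost in 11 of 22.

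The contig dd_Smed_v6_17762_0_1 was also lower at 4 days, with 2.24, 2.19, 2.87 and 2.53 CPM in controls and 1.24, 1.27, 0.960 and 1.58 CPM after egr-2 RNAi at 4 days (log2 fold change -0.95, SE 0.19, adjusted p = 0.0046). Unlike the contig before, it fell from 2 to 4 days in both conditions, with a log2 change of -1.22 in controls (SE 0.13, adjusted p = 3.0e-06) and -2.45 after egr-2 RNAi (SE 0.17, adjusted p = 9.4e-10). Its effect differed from those at 0 h and 2 days by -1.73 (adjusted p = 0.029) and -1.23 (adjusted p = 0.030), calls lost in 7 of 22 and 10 of 21 alternative fits. At 0 h this contig had 6 to 8 counts per control library and 8 to 19 after egr-2 RNAi. It did not pass the count filter of the 0 h comparison alone, so the -1.73 rests on low counts there.

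Higher at 4 days were dd_Smed_v6_2701_0_1 and dd_Smed_v6_427_0_1. In dd_Smed_v6_2701_0_1 the controls had 160, 129, 150 and 133 CPM and the egr-2 RNAi libraries 183, 219, 214 and 204 CPM (log2 fold change 0.53, SE 0.068, adjusted p = 1.5e-04). In dd_Smed_v6_427_0_1 they had 859, 680, 802 and 679 CPM and 998, 1169, 1135 and 1092 CPM (log2 fold change 0.55, SE 0.070, adjusted p = 1.4e-04). Both contigs peaked at 2 days in both conditions and fell by 4 days: the log2 change from 2 to 4 days was -0.30 after egr-2 RNAi and -0.91 in controls for the first, and -0.27 and -0.85 for the second. The effect of dd_Smed_v6_2701_0_1 exceeded that at 0 h by 0.58 (adjusted p = 0.024) and that at 2 days by 0.60 (adjusted p = 0.030), and that of dd_Smed_v6_427_0_1 by 0.47 (adjusted p = 0.045) and 0.58 (adjusted p = 0.030). These calls were lost in 6 and 10 of 22 alternative fits for the first contig and in 11 and 10 of 22 for the second.

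**Figure D4:**
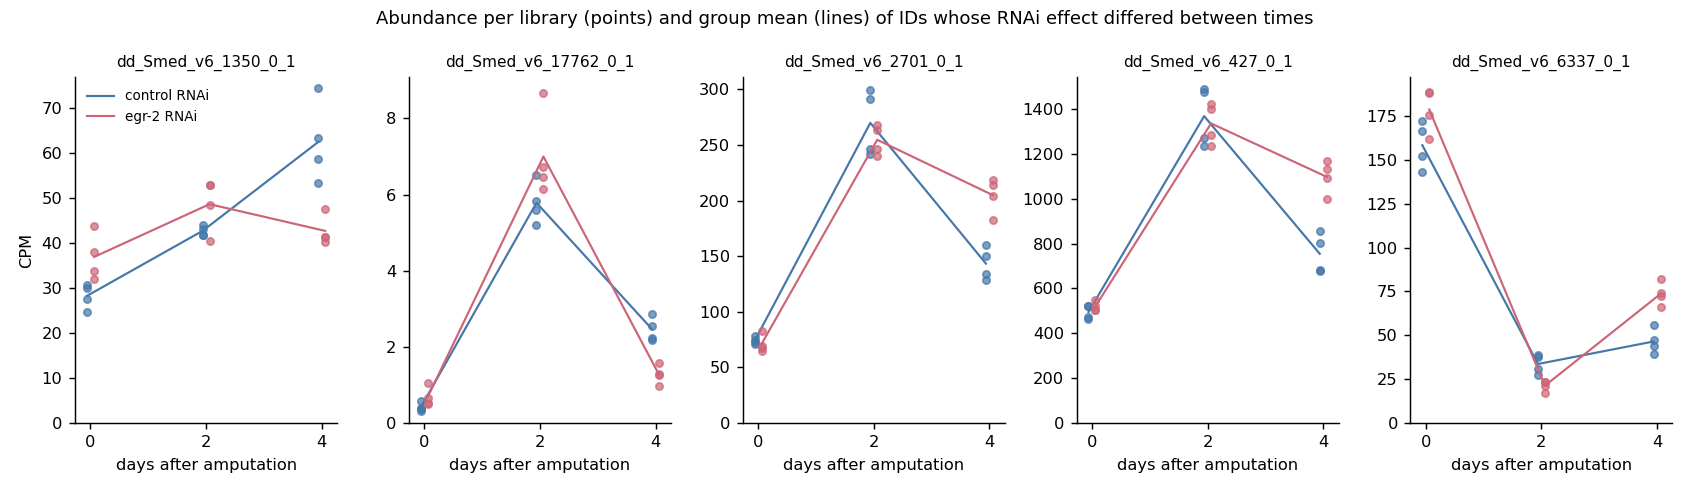
CPM per library (points) and group mean (lines) at 0, 2 and 4 days after amputation for the 4 IDs whose 4-day RNAi effect differed from both other times and for dd_Smed_v6_6337_0_1. At 4 days the egr-2 RNAi points lie below the controls for dd_Smed_v6_1350_0_1 and dd_Smed_v6_17762_0_1 and above them for the other 3 IDs.

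Among the most changed IDs, dd_Smed_v6_570_0_1 also had an effect that was larger at 4 days than at 2 days, by 2.43 on the log2 scale (SE 0.47, adjusted p = 0.031), a call lost in 13 of 22 alternative fits. Without control 4-day replicate 3 this difference was 3.09. The 4-day effect of this contig was not called different from that at 0 h (-0.43, SE 1.06, adjusted p = 0.89).

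The 4-day calls were also followed through the first 2 days of regeneration, in libraries that none of the 4-day values use. In control fragments from 0 h to 2 days, 295 of 500 higher calls were called lower and 107 higher, where 27.9% and 27.7% of all IDs were called lower and higher. The median change of these higher calls was -0.31. Lower calls showed the reverse, with 146 of 287 called higher and 74 lower and a median of 0.24.

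The same order held in egr-2 RNAi fragments. Of 502 higher calls, 287 were called lower and 94 higher from 0 h to 2 days (median -0.33), and of 284 lower calls, 129 were called higher and 64 lower (median 0.27). Over all IDs these shares were 23.6% lower and 23.5% higher. An opposed order was also seen over all IDs tested in both comparisons. The 4-day RNAi difference had a Spearman correlation of -0.239 with the change in controls (17757 IDs). With the change after egr-2 RNAi it was -0.241 (17428 IDs). The Pearson correlations were -0.015 and -0.025.

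For calls of at least 2-fold the counts lay the other way. Of 26 higher calls of at least 2-fold, 20 were called higher from 0 h to 2 days in controls, against 27.7% of all IDs, and 4 lower. Their median was 2.34, and the pair of short contigs above rose as well. Of 18 lower calls of at least 2-fold, 10 were called lower, against 27.9% of all IDs, and 2 higher, with a median of -1.003. After egr-2 RNAi, 21 of 28 such higher calls were called higher, against 23.5% of all IDs, and 5 lower. Of 16 such lower calls, 11 were called lower there, against 23.6%, and 3 higher. With total counts as the sole scaling, the median of all IDs shifted to 0.25 in controls and 0.30 after egr-2 RNAi, and 202 of 500 higher calls were then called lower in controls, against 14.8% of all IDs. Relative to the median of all IDs the lists' medians stayed at -0.31 and 0.24 in controls.

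**Figure D5:**
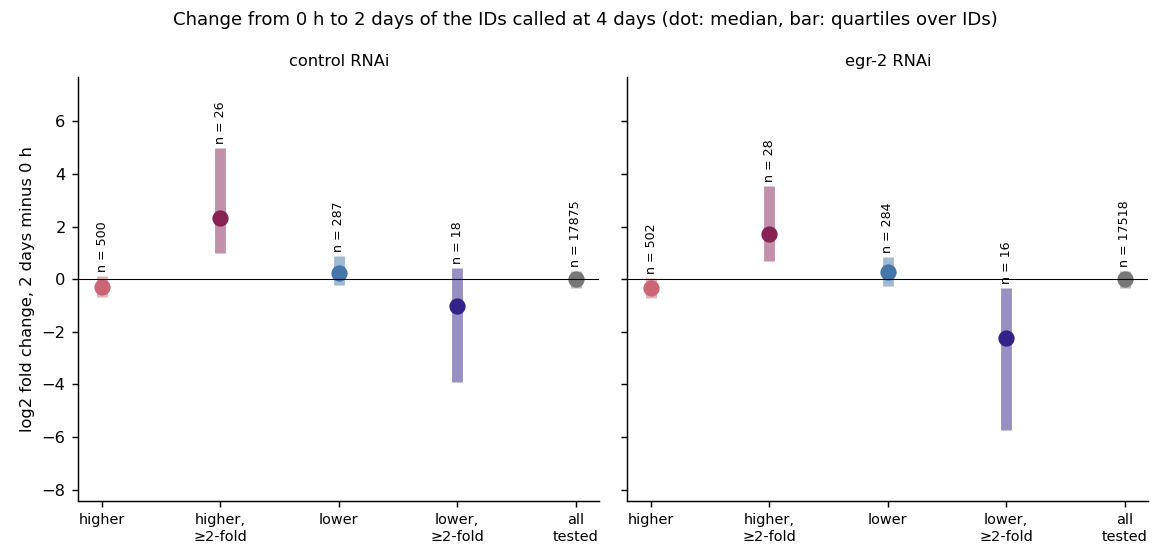
Log2 change from 0 h to 2 days in control RNAi and egr-2 RNAi fragments for IDs called higher or lower at 4 days, for those of at least 2-fold and for all tested IDs, as the median (dot) and quartiles (bar) over n IDs. All higher calls have medians of -0.31 and -0.33, while the higher calls of at least 2-fold have medians of 2.34 and 1.72.

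The authors' deposited table gave 637 of 16812 IDs a false discovery rate below 0.05 at 4 days, 3.79%. In the authors' deposited table these were 428 higher and 209 lower. Of the 637, 576 were among the 797 calls with the same sign, which is 90.4% of the authors' calls and 72.3% of the calls here. Log2 fold changes in the authors' deposited table differed from those here by at most 0.019 among the IDs called here that have a row in it.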

How the data were processed

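RNA sequencing libraries were made from about 500 ng of total RNA with a NEBNext Ultra kit and read as pairs of 150 bases, per the labels' protocols and the design text. The authors deposited whole-number counts per transcript contig; per the submitters' processing notes the tools were FastQC 0.11.5, Bowtie2 2.3.1 and featureCounts of Subread 1.6.3, and the design text adds BBDuk and edgeR. Use of strand is not given in the sources used here, so reads of overlapping antisense transcripts cannot be told apart, and near-identical contigs may share reads. The authors' second deposited table holds log2 fold changes and adjusted p-values per the file headers.

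The counts of the 8 libraries were filtered with filterByExpr (minimum count 10, minimum total 15), scaled by TMM and tested with edgeR 4.0.16 (limma 3.58.1, R 4.3.3) by the quasi-likelihood test with Benjamini-Hochberg adjustment over all tested IDs at 0.05. Every adjusted p in the text comes from this test unless another is named. Differences of the RNAi effect between times were tested in 1 fit over 24 libraries. The RNAi differences at 0 h and 2 days were each fitted on the 8 libraries compared, with their own filter and adjustment. Changes between times within a condition were fitted in the same way. Printed CPM values use scaling factors over all 24 libraries, and standard errors come from the F statistic. Alternatives were other scaling factors and filters, DESeq2 1.42.0, a likelihood ratio test, a replicate block, a fit over all 24 libraries and leaving out each library in turn. The scripts were tested on simulated data. The 12 replicate pairs had a chi-square per degree of freedom of 3.72 to 10.2, more than counting noise gives. IDs were named if at least 1 CPM on average with no overlap between groups, 2 per direction by fold change; others were named after their values were seen. The comparison, lists and tests were chosen with earlier results of these data known. Intervals at a count of 0 cover counting error only, as 3 counts.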

Additional observations from a re-analysis of the deposited data

Results flagged for a closer look

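Of 72 sets of 4 values tested for a distant value, 3 held one, and chance gives about 1 in 20. In egr-2 RNAi 4-day replicate 1 the top 10 IDs took 7.31% of all counts, against 7.06% to 7.07% in the other replicates. In dd_Smed_v6_570_0_1 egr-2 RNAi replicate 4 stood at 51.2 CPM, above 26.4 to 30.6 CPM in the others. In dd_Smed_v6_1350_0_1 egr-2 RNAi replicate 1 stood at 47.6 CPM, above 40.3 to 41.4 CPM in the others.

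The RNAi effect differed between times by edgeR's quasi-likelihood test for 6 named IDs. Against 2 days, the 4-day effect differed by 2.43 in dd_Smed_v6_570_0_1, by 1.34 in dd_Smed_v6_6337_0_1, by -0.74 in dd_Smed_v6_1350_0_1, by -1.23 in dd_Smed_v6_17762_0_1, by 0.60 in dd_Smed_v6_2701_0_1 and by 0.58 in dd_Smed_v6_427_0_1 on the log2 scale. Against 0 h, it differed by -0.94 in dd_Smed_v6_1350_0_1, by -1.73 in dd_Smed_v6_17762_0_1, by 0.58 in dd_Smed_v6_2701_0_1 and by 0.47 in dd_Smed_v6_427_0_1.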

How the results depend on the processing

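The main count of 797 was 802 with RLE factors, 780 with total counts alone, 844 with no filter, 923 with DESeq2 and 1115 with a replicate block. It was 464 in the fit over all 24 libraries, and 504 to 881 with each library left out. Same-numbered libraries had deviations correlated at -0.015 to 0.116. For control replicates 1 and 4 the values, 0.116 and 0.060, lay above those with egr-2 RNAi libraries of other numbers, at most -0.021 and -0.0068. For control replicates 2 and 3 they lay within the range with other numbers. The highest value with another number was 0.063, for control replicate 3. Some structure shared by replicate number is therefore possible, and the main fit did not pair the libraries. With the block the count shared with 2 days was 243 and the counts of differences from 0 h and 2 days were 116 and 45. The count of 63 shared with 0 h was 119 with DESeq2 and 149 in the 24-library fit, which gave 17 in place of 147 for 2 days. Differences between times, 56 and 18 as reported, were 218 and 86 with DESeq2 and 209 and 56 with the likelihood ratio test. With single libraries left out, the count shared with 0 h ran from 11 to 132, that shared with 2 days from 65 to 206, and the differences from 11 to 101 and from 1 to 32. Under total counts alone 62.7% of the differences from 0 h were higher, against 28.6%. The cause was not tested. Alternatives at 0 h and 2 days by single library and for the change from 0 h to 2 days were chosen after seeing the data. Depth limits IDs under 1 CPM, of which 0.357% were called.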
